A study of Mus musculus with 6 samples.

Results

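Ribosome biogenesis genes and Myc were followed in hepatocytes regrowing an injured mouse liver. The set held 40 genes chosen by symbol, Myc and 39 genes of ribosome assembly, and the transcripts of each symbol were summed. All 40 were found among the 35970 gene symbols of the series, and all 40 had a mean level of at least 1 TPM (a share of the library's transcripts, corrected for their length), the minimum for testing, as had 10598 genes in all. Each of the 6 libraries came from the liver of 1 Fah-/-;dCas9+ mouse, 3 given the plasmid pkt2-fah-GFPL10a-CRISPRi-Nontargeting and 3 given pkt2-fah-GFPL10a-CRISPRi-Neurl1b, called non-targeting and CRISPRi here. Both groups received 10 µg of plasmid together with the AAV8.TBG.PI.Cre.rBG virus by hydrodynamic tail vein injection, both were kept on nitisinone at 7.5 µg/mL until that day and had none afterwards, and livers were taken after 4 weeks. Fah is the last enzyme of tyrosine breakdown, and nitisinone blocks the pathway above it, so its withdrawal favours the hepatocytes that took up the plasmid. The same plasmid carries Fah, the guide and a GFP-tagged ribosomal protein L10a, and ribosomes were pulled down from 400 mg of liver with an antibody to GFP before poly(A) RNA was sequenced. A level is therefore meant to describe ribosome-bound mRNA of cells that carry the plasmid, pooled over the nodules of 1 liver. Markers of other liver cells and of blood cells were detected as well, as given below, and the source of that RNA was not tested. TBG is a hepatocyte promoter, here driving Cre; the sources used here give neither the ages of the mice nor the promoter of the dCas9 allele.

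Ribosomes are built in the nucleolus. RNA polymerase I transcribes a long precursor rRNA, small nucleolar ribonucleoproteins (snoRNPs) guide its chemical modification, and the small subunit processome and the large subunit assembly factors cut and fold it around ribosomal proteins. Myc, a transcription factor that binds the DNA sequence CACGTG (the E-box) as a dimer with Max, is a known activator of genes at each of these steps, and both Myc and nucleolar genes are known to be induced when hepatocytes leave quiescence to regrow the liver.

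The targeted gene and the makeup of the libraries were checked first. Neurl1b, an E3 ubiquitin ligase of the Notch pathway, stood at 1.22, 0.897 and 0.688 TPM in the non-targeting mice and at 0.295, 0.351 and 0.307 TPM in the CRISPRi mice. The groups did not overlap (log2 fold change of TPM + 1 -0.55, SE 0.11, limma adjusted p = 0.430 without the filter on low levels, exact two-sided permutation p = 0.1, the smallest that 3 against 3 allows). All 9 hepatocyte markers that were matched were detected in every library. Their summed levels were 32446, 59589.8 and 26093 TPM in non-targeting mice 1, 2 and 3. In the CRISPRi mice they were 22482 to 30112 TPM. Stellate cell markers summed to 13.4 to 28.0 TPM in the non-targeting and to 33.9 to 46.9 TPM in the CRISPRi mice, and 6 of those 10 genes were higher in each CRISPRi library than in each non-targeting one. The summed Kupffer cell markers were at 69.1 to 123 against 101 to 149.6 TPM, and 5 of those 10 genes were higher in each CRISPRi library and 0 were lower. Of the 9 hepatocyte markers, 2 were lower in each CRISPRi library and 0 were higher. Over all tested genes, 12.5% were higher in each CRISPRi library and 4.57% were lower. The endothelial markers summed to 25.4 to 37.7 against 26.7 to 39.7 TPM and the bile duct ones to 19.8 to 31.6 against 21.2 to 27.9 TPM. Of 10 endothelial genes 2 were higher in each CRISPRi library and 1 was lower. Of 8 bile duct genes 1 was higher and 1 was lower. Lymphocyte and neutrophil markers summed to 9.67 to 51.4 against 4.75 to 15.4 TPM and red cell markers to 939 to 3879.9 against 490 to 1567 TPM, in each case with the highest sum in non-targeting mouse 2. Of 10 lymphocyte and neutrophil genes 1 was higher in each CRISPRi library and 1 was lower. Of 7 red cell genes 0 were higher and 1 was lower. No marker was at 0 in all 6 libraries. These libraries hold RNA pulled down from pieces of liver. The number of cells of a type, their RNA per cell and the pull-down itself cannot be told apart in such levels. The part that these markers have in the results on ribosome biogenesis genes was not tested. TPM keep no read depth, so the precision of low levels is unknown.

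No gene of the set passed the threshold when all 6 mice were compared, which does not show that none changed. At an adjusted p below 0.05 in limma, 0 of the 40 genes passed, in a comparison in which 0.0189% of all tested genes passed, 2 of 10598. Mybbp1a and Nop14, 2 genes of the set, were higher in the CRISPRi mice at an unadjusted p below 0.05, and 0 were lower, beside 10.1% of all genes higher and 3.19% lower. The smallest adjusted p of the set was 0.352, for Mybbp1a. The median log2 fold change of the 40 genes was 0.23, beside 0.18 for all tested genes, and 34 of the 40 were above 0, beside 74.03% of all genes. With the libraries scaled by the median of ratios, which brought the median of all genes to -0.0013, the median of the 40 became 0.06 and 22 of them were above 0. Only Nop14 had all 3 CRISPRi libraries above all 3 non-targeting ones, 1 of 40 genes against 12.5% of the table. Only Rrp9 had them all below, 1 of 40 against 4.57%.

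The levels of the set differed more among the non-targeting mice than between the groups. Summed over the 40 genes, they were 1179, 777 and 969 TPM in non-targeting mice 1, 2 and 3 and 1087, 1126 and 1129 TPM in the CRISPRi mice. The mean of log2(TPM + 1) over the set was 3.96, 3.30 and 3.45 in the non-targeting and 3.82, 3.87 and 3.78 in the CRISPRi mice, while over all tested genes it was 3.99, 3.67 and 3.68 against 3.97, 3.97 and 3.90. Non-targeting mice 2 and 3 were thus low and non-targeting mouse 1 lay with or above the CRISPRi mice, in the set as in the table. In 29 of the 40 genes (72.5%) non-targeting mice 2 and 3 were both below the other 4 libraries, a pattern shown by 49.5% of all tested genes. Non-targeting mouse 1 had the highest level of all 6 libraries in 22 of the 40 genes (55.0%), beside 28.8% of all genes. Non-targeting mouse 2 had the lowest in 25 genes of the set (62.5%, beside 37.0% of all genes) and non-targeting mouse 3 in 13 (32.5%, beside 36.3%). The labels give no difference among the 3 non-targeting mice, and a split of them is only a description.

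**Figure D1:**
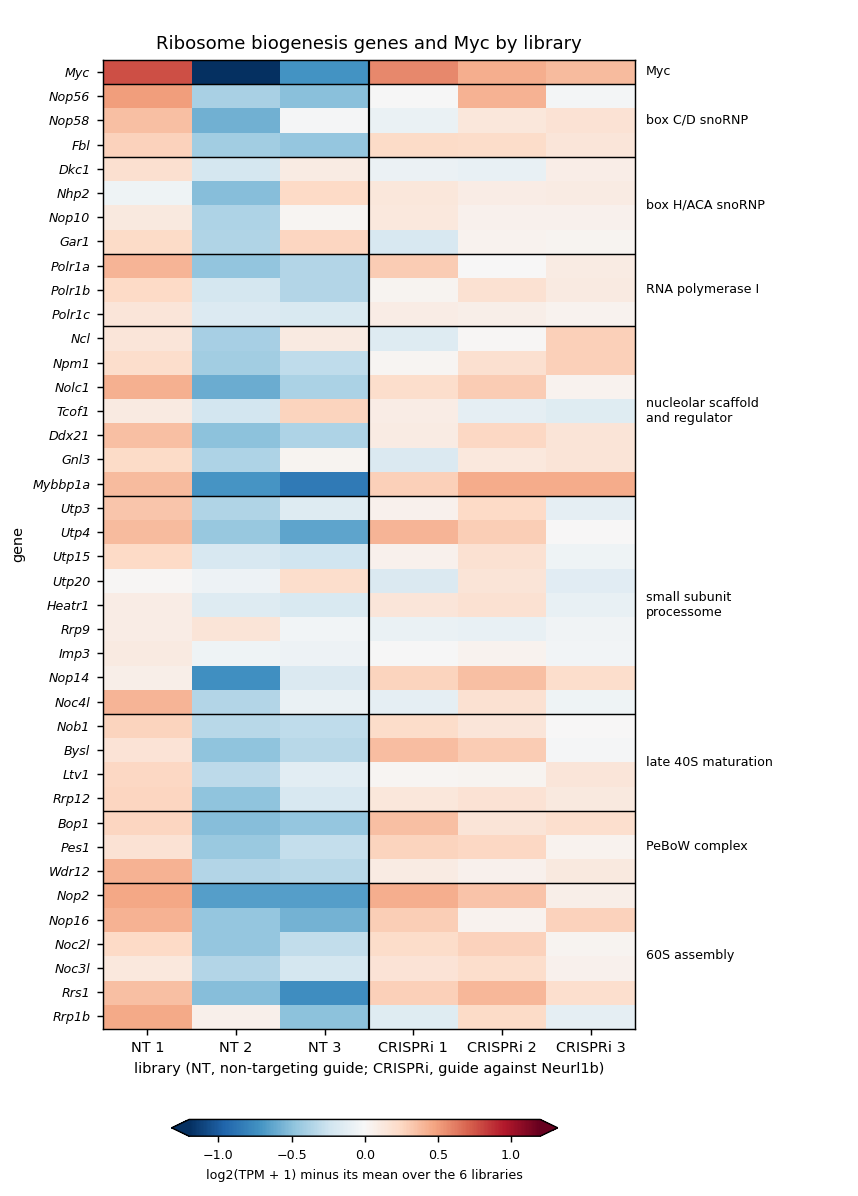
Level of the 40 genes in each library, as log2(TPM + 1) minus the mean over the 6 libraries (red, above the mean; blue, below it), with genes in rows by role and libraries in columns. Non-targeting mice 2 and 3 are both below the other 4 libraries in 29 of the 40 rows, and non-targeting mouse 1 is the highest library in 22.

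Without non-targeting mouse 1, 18 of the 40 genes passed as higher in the CRISPRi mice and 0 as lower, beside 23.1% of all tested genes higher and 2.24% lower. This fit keeps 2 non-targeting mice, and the mouse left out is singled out by the same levels that the fit tests. Every adjusted p without that mouse, here and below, is therefore a description and not support for a change. The 18 were Myc, Fbl, Polr1a, Npm1, Nolc1, Ddx21, Mybbp1a, Utp4, Nop14, Nob1, Bysl, Bop1, Pes1, Wdr12, Nop2, Nop16, Noc2l and Rrs1. The median log2 fold change of the set was then 0.43, beside 0.29 for all genes. When the 5 remaining libraries were also scaled by the median of ratios, 2 of the 40 genes passed, Myc (log2 fold change 1.28, adjusted p = 0.0469) and Mybbp1a (0.86, adjusted p = 0.0359), beside 1.74% of all genes higher, and the median of the set was 0.15. Leaving out any one of the other 5 mice gave 0 genes of the set past the threshold, scaled or not. Array weights give less weight to libraries far from their group. With them 14 genes of the set passed, all higher, beside 18.5% of all genes. The weights were set by the same levels that the fit tests, so this count too is a description and not support for a change.

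**Figure D2:**
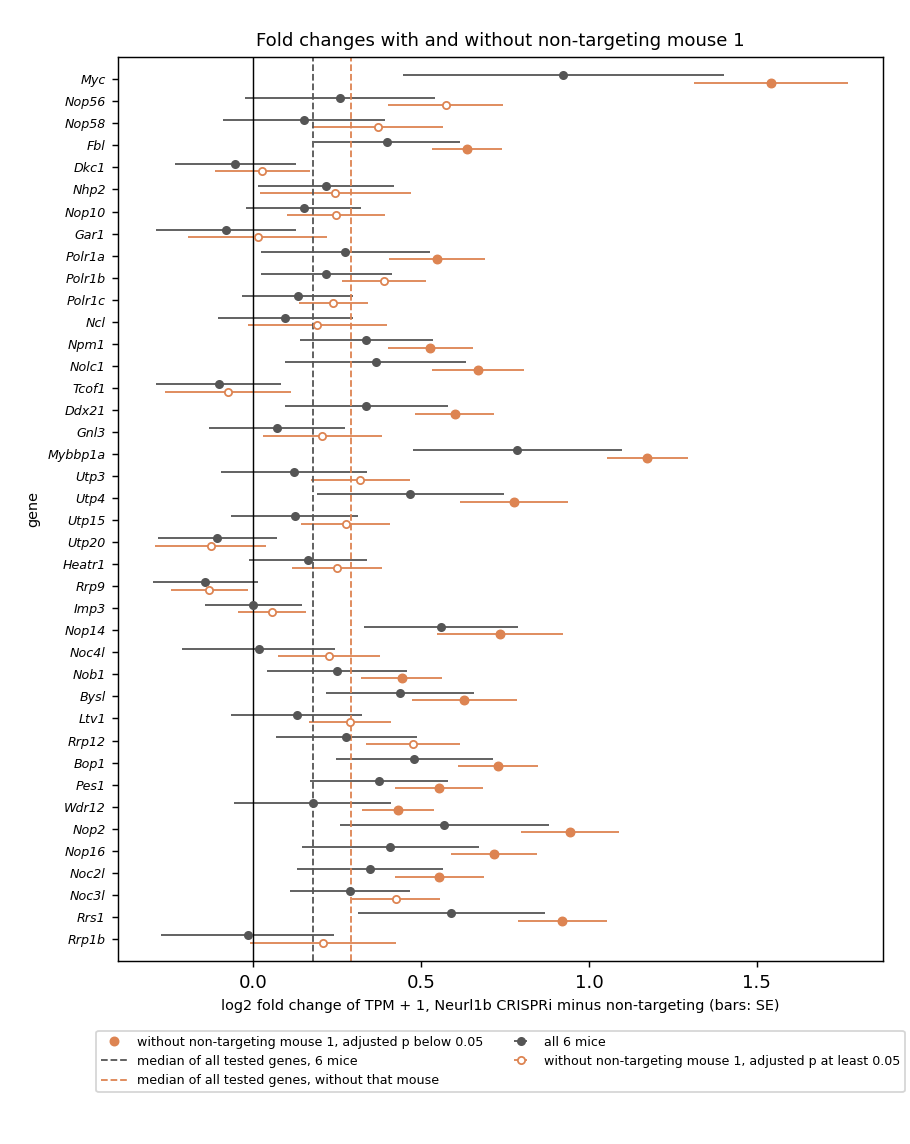
Log2 fold change of TPM + 1, CRISPRi minus non-targeting, with SE bars, for the 40 genes with all 6 mice (grey) and without non-targeting mouse 1 (orange, filled where the limma adjusted p was below 0.05), and dashed lines at the medians of all tested genes, 0.18 and 0.29. No gene passes with all 6 mice and 18 pass without that mouse.

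Myc showed the widest spread of the set among the non-targeting mice on the log2(TPM + 1) scale. Its level was 8.92, 1.13 and 2.54 TPM in the non-targeting mice and 7.63, 6.84 and 6.54 TPM in the CRISPRi mice. The highest and the 2 lowest libraries were all non-targeting ones, so that the CRISPRi mice lay inside the range of their controls. The means were 4.20 ± 4.15 and 7.004 ± 0.562 TPM (SD, n = 3 each), a ratio of 1.67, with a log2 fold change of 0.92 (SE 0.48, limma adjusted p = 0.407). Without non-targeting mouse 1 the log2 fold change of Myc was 1.54 (SE 0.23, adjusted p = 0.0179). All of its signal lay on transcripts annotated as protein-coding.

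The partners and antagonists of Myc were followed as a list. Of 12 genes of the Myc network (Max and the proteins that pair with it or compete for it), 8 were tested, 0 passed, the median log2 fold change was 0.08 and 5 were above 0. The mean of log2(TPM + 1) over the 8 was 3.29, 3.03 and 3.04 in the non-targeting and 3.11, 3.21 and 3.20 in the CRISPRi mice, so that, as for Myc, non-targeting mouse 1 was the highest library and non-targeting mice 2 and 3 were the lowest. Max, the obligate partner, was at 16.7, 11.0 and 10.2 TPM in the non-targeting and at 16.1, 16.8 and 15.4 TPM in the CRISPRi mice, again with non-targeting mouse 1 beside the CRISPRi mice (log2 fold change 0.36, SE 0.21, adjusted p = 0.439). Mxd3, which pairs with Max and opposes Myc at E-boxes, was at 4.74, 3.32 and 3.51 TPM against 1.99, 3.05 and 2.95 TPM. Its groups did not overlap (log2 fold change -0.41, SE 0.20, adjusted p = 0.400, exact permutation p = 0.1). Mxi1, another antagonist of the same family, was at 5.71, 5.77 and 4.53 TPM against 6.10, 7.40 and 7.49 TPM (log2 fold change 0.34, SE 0.18, adjusted p = 0.410, exact permutation p = 0.1), and its groups did not overlap either. These 2 antagonists lay in opposite directions and neither passed; over the list, 2 of the 8 genes were higher in each CRISPRi library and 1 was lower, beside 12.5% and 4.57% of all genes. Without non-targeting mouse 1, Max passed as higher (log2 fold change 0.56, adjusted p = 0.0254), beside 23.1% of all genes. It was the only 1 of the 8 to pass. With scaling added, Max did not pass and Mxd4, a further antagonist, was the only 1 that did (log2 fold change -0.60, adjusted p = 0.0432), beside 2.74% of all genes lower.

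The E-box was looked for around the start sites of the set, because Myc was the gene of the set with the largest log2 fold change. A RefSeq promoter entry of assembly GRCm38.p6, 250 bases before to 50 bases after the gene's start, was matched for 33 of the 40 genes, and none was for Myc, Fbl, Npm1, Tcof1, Rrp12, Bop1 and Rrs1. The letters CACGTG, which read the same on both strands, stood in 6 of the 33 windows (18.2%), those of Mybbp1a, Nop2, Pes1, Utp4, Ltv1 and Utp20. Among all tested genes with an entry 12.1% of windows of the same length held them, and among all entries 8.09%. The 4 windows with the smallest p in the comparison of all 6 mice are shown, 30 bases each with the E-box in capitals.
Mybbp1a, chr11:72441347-72441376, plus strand: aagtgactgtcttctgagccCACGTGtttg
Nop2, chr6:125131811-125131840, plus strand: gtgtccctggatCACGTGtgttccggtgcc
Pes1, chr11:3963965-3963994, plus strand: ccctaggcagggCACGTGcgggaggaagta
Utp4, chr8:106893643-106893672, plus strand: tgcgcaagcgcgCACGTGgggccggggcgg

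The E-box of Nop2 began 60 bases before the start site, while those of Pes1, Utp4 and Mybbp1a began at bases 3, 16 and 41 of the transcribed side. A match is a description of the sequence, and no binding was measured here. Because the windows shown were chosen by p in this comparison, the levels of their genes say nothing about the E-box.

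Among the nucleolar scaffold and regulator genes, Mybbp1a had the smallest p of the whole set. It encodes a nucleolar protein that takes part in rRNA synthesis and processing. Its level was 15.8, 6.87 and 6.16 TPM in the non-targeting and 14.7, 16.6 and 16.5 TPM in the CRISPRi mice, so that non-targeting mice 2 and 3 were at less than 50% of every other library. The means were 9.60 ± 5.36 and 15.96 ± 1.05 TPM (SD, n = 3 each). This made a log2 fold change of 0.79, with SE 0.31 and a limma adjusted p of 0.352. Npm1, nucleophosmin, an abundant chaperone of the outer nucleolus, was at 139, 89.5 and 96.7 TPM in the non-targeting and at 122, 136 and 146 TPM in the CRISPRi mice. It overlapped between the groups only through non-targeting mouse 1 (log2 fold change 0.34, SE 0.20, adjusted p = 0.440). Tcof1, treacle, which helps to recruit RNA polymerase I, was low at 1.76, 1.199 and 2.09 TPM against 1.74, 1.39 and 1.32 TPM, with a log2 fold change of -0.10 (SE 0.19, adjusted p = 0.775). The other 4 genes of the group were Ncl (nucleolin), Nolc1 (a chaperone of snoRNPs), Ddx21 (an RNA helicase) and Gnl3 (nucleostemin), with log2 fold changes of 0.07 to 0.37. Of these, Nolc1 and Ddx21 passed without non-targeting mouse 1, beside 23.1% of all genes higher, and Ncl and Gnl3 did not.

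Of the 2 kinds of snoRNP, box C/D particles carry out 2′-O-methylation of rRNA. Fbl, fibrillarin, their methyltransferase, was at 52.6, 32.2 and 31.0 TPM in the non-targeting and at 50.8, 50.4 and 48.0 TPM in the CRISPRi mice. The log2 fold change of Fbl was 0.40 (SE 0.22, adjusted p = 0.419) and, without non-targeting mouse 1, 0.64 (adjusted p = 0.0199). A pseudogene symbol, Fbl-ps2, held at most 1.76 TPM in a library, and reads that it shares with Fbl may have been divided between them. Nop58, a core protein of the particle, was at 56.5, 28.9 and 43.3 TPM against 41.3, 48.1 and 49.4 TPM. Here non-targeting mouse 3 lay among the CRISPRi mice (log2 fold change 0.15, SE 0.24, adjusted p = 0.745). Nop56, its paralog, ranged from 12.1 to 25.2 TPM, with both ends in non-targeting mice.

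Box H/ACA snoRNPs convert uridine to pseudouridine, and their proteins also bind telomerase RNA. Nhp2 was the most abundant gene of the set, at 157, 114 and 192 TPM in the non-targeting and at 179, 173 and 175 TPM in the CRISPRi mice. The highest and the lowest level were both in non-targeting mice (log2 fold change 0.22, SE 0.20, adjusted p = 0.583). Gar1 was at 29.8, 19.5 and 30.5 TPM against 22.0, 26.2 and 25.9 TPM (log2 fold change -0.08, SE 0.21, adjusted p = 0.850), again with the CRISPRi mice inside the range of the controls. Nop10, which ranged from 104 to 146 TPM, and Dkc1, the pseudouridine synthase dyskerin, which ranged from 6.02 to 8.24 TPM, overlapped between the groups as well. None of these 4 genes passed without non-targeting mouse 1, beside 18 of the set as a whole and 23.1% of all genes higher. A test of that difference was not made. The mean of log2(TPM + 1) of the 4 was 5.66, 5.18 and 5.70 in the non-targeting mice. In the sum of all transcripts non-targeting mouse 3 was thus not low in this group. For Gar1, 19.8 of the 30.5 TPM of that mouse lay on transcripts not annotated as protein-coding. The protein-coding transcripts of Gar1 were at 10.7 TPM there, the lowest of all libraries. Those of Nhp2, Nop10 and Dkc1 were not lowest in that mouse.

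The subunits of RNA polymerase I were followed by Polr1a, Polr1b and Polr1c, of which Polr1c also belongs to RNA polymerase III. Polr1c was at 20.1, 16.1 and 15.8 TPM in the non-targeting and at 19.3, 19.0 and 18.7 TPM in the CRISPRi mice. Polr1a, the largest subunit, was at 4.37, 1.92 and 2.18 TPM against 4.02, 3.06 and 3.34 TPM, and Polr1b was at 2.28, 1.41 and 1.19 TPM against 1.86, 2.16 and 2.01 TPM. In all 3 subunits non-targeting mouse 1 was the highest library and non-targeting mice 2 and 3 the lowest. Their log2 fold changes were 0.27, 0.22 and 0.13 for Polr1a, Polr1b and Polr1c, with a smallest adjusted p of 0.573, and the sign for Polr1c turned with median-of-ratios scaling (-0.07).

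The small subunit processome, the particle that makes the first cuts around the small subunit rRNA, was followed by 9 genes with log2 fold changes of -0.14 to 0.56. Nop14 was at 7.15, 3.66 and 5.85 TPM in the non-targeting and at 8.32, 8.95 and 7.96 TPM in the CRISPRi mice, without overlap. The means were 5.55 ± 1.76 and 8.41 ± 0.500 TPM (SD, n = 3 each), with a log2 fold change of 0.56 (SE 0.23, adjusted p = 0.363, exact permutation p = 0.1). Imp3, a protein of the U3 snoRNP and the most abundant of the group, was at 85.1, 75.9 and 75.3 TPM against 78.6, 80.8 and 76.7 TPM, the narrowest relative range of the 40 genes. Its log2 fold change was 0.00052 (SE 0.14, adjusted p = 0.999) and became -0.21 with median-of-ratios scaling. Rrp9, which binds the U3 snoRNA, was at 15.2, 15.9 and 13.9 TPM against 13.4, 13.3 and 13.7 TPM, lower in each CRISPRi mouse (log2 fold change -0.14, SE 0.16, adjusted p = 0.638). Utp3, Utp4, Utp15, Utp20, Heatr1 and Noc4l had log2 fold changes between -0.11 and 0.47, the highest of them that of Utp4. Of the 9 genes Utp4 and Nop14 passed without non-targeting mouse 1, beside 23.1% of all genes higher.

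Late maturation of the small subunit was followed by Nob1, the endonuclease that makes the last cut, and by Bysl, Ltv1 and Rrp12, which act before or during export. Bysl was at 13.9, 8.49 and 9.51 TPM in the non-targeting and at 16.2, 15.4 and 12.1 TPM in the CRISPRi ones (log2 fold change 0.44, SE 0.22, adjusted p = 0.404). Ltv1 was at 11.2, 7.22 and 8.38 TPM against 9.40, 9.49 and 10.3 TPM (log2 fold change 0.13, SE 0.19, adjusted p = 0.730). In both genes only non-targeting mouse 1 was as high as the lowest CRISPRi mouse. Nob1 and Rrp12 had log2 fold changes of 0.25 and 0.28. Nob1 and Bysl passed without non-targeting mouse 1, beside 23.1% of all genes higher.

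Among the large subunit genes, all 3 of the PeBoW complex and 5 of the 6 others had non-targeting mice 2 and 3 below the other 4 libraries. The complex, formed by Bop1, Pes1 and Wdr12, is needed for the processing of the large subunit rRNA. Bop1 was at 13.5, 7.50 and 7.80 TPM in the non-targeting and at 14.6, 12.5 and 12.9 TPM in the CRISPRi ones (log2 fold change 0.48, SE 0.23, adjusted p = 0.397). Wdr12 was at 11.2, 6.17 and 6.31 TPM against 8.82, 8.48 and 8.97 TPM, with non-targeting mouse 1 the highest library by a margin wider than the spread of the CRISPRi mice (log2 fold change 0.18, SE 0.23, adjusted p = 0.692). All 3 PeBoW genes passed as higher without non-targeting mouse 1, in a fit in which 23.1% of all genes passed as higher. Their log2 fold changes were then 0.73 for Bop1, 0.55 for Pes1 and 0.43 for Wdr12. With that mouse left out and the rest scaled, none of the 3 passed, and the median of the 3 was 0.24.

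Of the 6 other large subunit assembly genes, Rrs1, which helps to load the 5S ribonucleoprotein, was at 20.7, 10.9 and 9.07 TPM in the non-targeting and at 19.6, 21.3 and 18.4 TPM in the CRISPRi mice. Its log2 fold change was 0.59 (SE 0.28, adjusted p = 0.394). Nop16, the most abundant of the 6, was at 45.9, 24.6 and 22.8 TPM against 42.2, 35.3 and 41.6 TPM (log2 fold change 0.41, SE 0.26, adjusted p = 0.462). In both genes, as in Nop2, an rRNA methyltransferase at 10.6, 4.33 and 4.31 TPM against 10.4, 9.66 and 7.84 TPM, non-targeting mice 2 and 3 were far below the remaining 4 libraries. Rrp1b was at 3.59, 2.49 and 1.37 TPM against 2.01, 2.92 and 2.11 TPM and did not follow them (log2 fold change -0.02, SE 0.26, adjusted p = 0.978). Noc2l and Noc3l had log2 fold changes of 0.35 and 0.29. Nop2, Nop16, Noc2l and Rrs1 passed without non-targeting mouse 1, beside 23.1% of all genes higher.

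**Figure D3:**
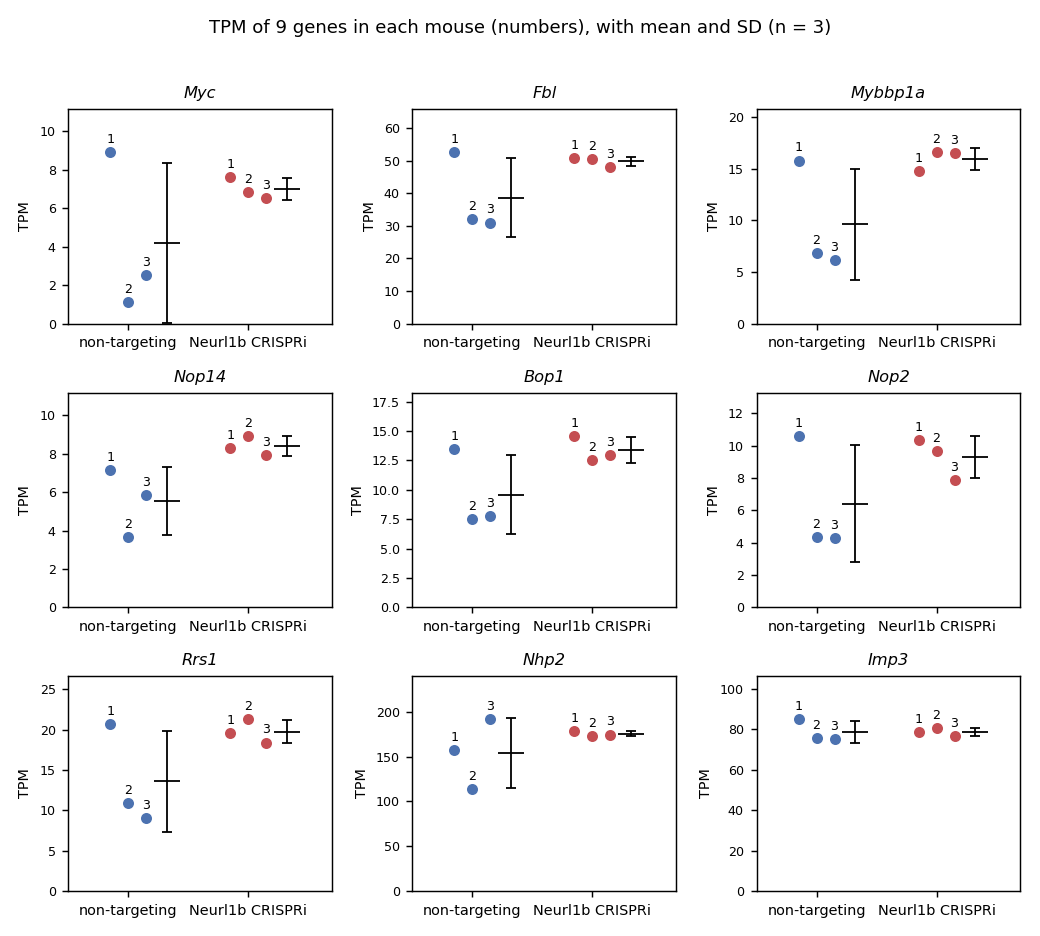
TPM of 9 of the genes in each mouse (points, numbered by mouse within its group) with the mean and SD of each group (bars, n = 3), every axis from 0. In Myc, Fbl, Mybbp1a, Bop1, Nop2 and Rrs1 non-targeting mouse 1 lies with the CRISPRi mice and the other 2 non-targeting mice lie below them, while Nhp2 lacks that split, the 6 levels of Imp3 lie close together and Nop14 has no overlap.

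The summed level of a symbol mixes transcripts that code for the protein with others, and these did not always run in parallel. The 40 genes had 238 transcripts in the table, of which GENCODE vM21 annotates 93 as protein-coding, 93 as retained introns, 28 as targets of nonsense-mediated decay and 21 as processed transcripts, with 3 unmatched. In 26 of the 40 genes at least 90% of the mean TPM lay on protein-coding transcripts, and in 8 genes (20.0%) under 50% did, beside 15.2% of tested genes with a coding transcript. The 8 were Ncl (6.22% coding), Heatr1 (6.09%), Polr1a (8.09%), Rrp1b (8.40%), Utp20 (17.4%), Mybbp1a (41.1%), Nop56 (41.9%) and Nhp2 (49.4%). Ncl had 93.8% of its level on retained-intron transcripts. kallisto divides reads between overlapping transcripts by estimation, so these shares are estimates.

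Rrp9 was the clearest case in which the parts went opposite ways. Its protein-coding transcript was at 9.68, 6.82 and 6.03 TPM in the non-targeting and at 10.9, 9.37 and 9.01 TPM in the CRISPRi mice, while its other transcripts summed to 5.51, 9.05 and 7.82 TPM against 2.41, 3.92 and 4.72 TPM. The lower total of Rrp9 in the CRISPRi mice thus lay in the other transcripts. The coding share was 50.1 ± 11.8% in the non-targeting and 72.7 ± 8.37% in the CRISPRi mice (SD, n = 3 each) and did not overlap (exact two-sided permutation p = 0.1). Noc4l, the second gene with a higher coding share in every CRISPRi mouse, had 56.1 ± 1.40% and 71.4 ± 4.07% (SD, n = 3 each, exact permutation p = 0.1). These were 2 of 40 genes, beside 3.8% of all genes with a share, and Dkc1, Npm1 and Bop1, 3 of 40 beside 3.31%, had a lower share in every CRISPRi mouse. In Npm1 that difference was between means of 99.96% and 99.7%, in Bop1 between 100% and 92.7% and in Dkc1 between 98.3% and 91.0%. In Mybbp1a both parts had higher means in the CRISPRi mice. Its coding transcript was at 6.12, 2.83 and 4.07 TPM against 6.32, 6.79 and 5.36 TPM, and its others, all annotated as retained introns, were at 9.66, 4.04 and 2.10 TPM against 8.43, 9.81 and 11.2 TPM. Its coding share, 38.8, 41.2 and 66.0% against 42.9, 40.9 and 32.4%, overlapped between the groups (exact permutation p = 0.5).

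**Figure D4:**
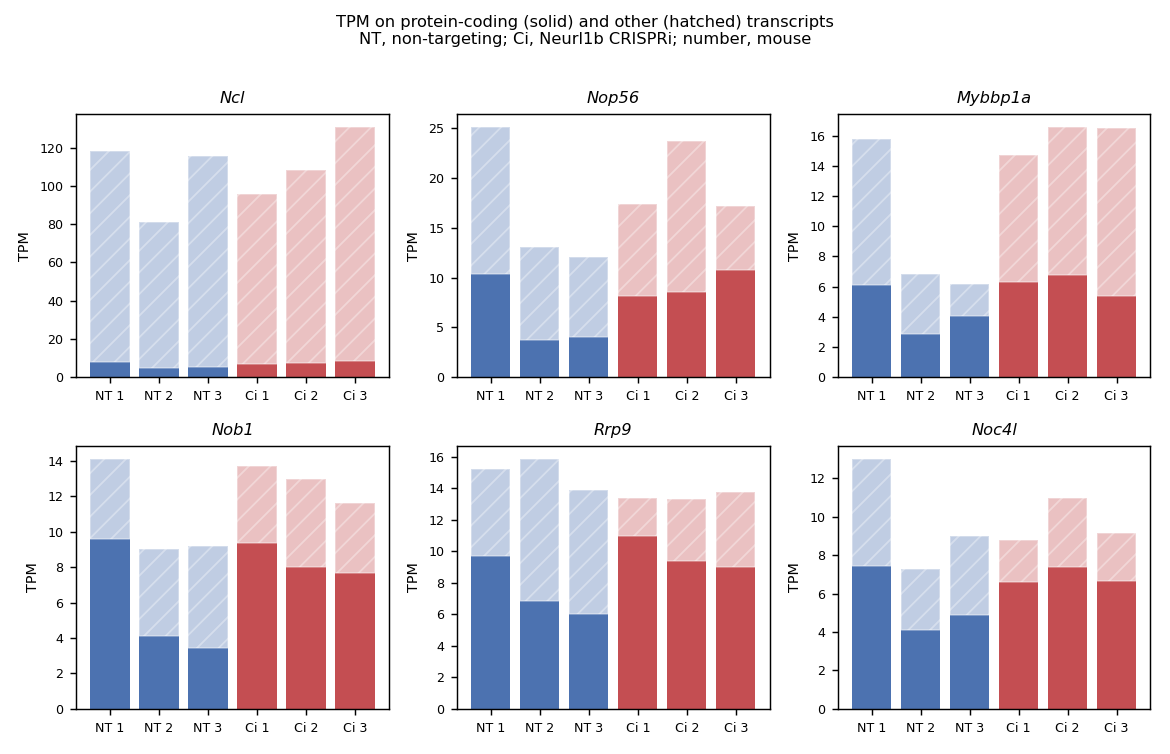
TPM on protein-coding transcripts (solid) and on all others (hatched, stacked on top) in each of the 6 libraries for 6 of the genes, every axis from 0. In Ncl nearly all of the level is on other transcripts (93.8%), and in Rrp9 the coding part is smallest in non-targeting mice 2 and 3 while the other part is largest there.

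When only protein-coding transcripts were summed, an alternative chosen after the data were seen, 36 of the 40 genes reached 1 TPM, and Polr1a, Utp20, Heatr1 and Rrp1b did not. None of the 36 passed with all 6 mice, beside 0.0105% of all genes. Their median log2 fold change was 0.31, beside 0.20 for all genes, and 1 of the 36, Nop14, had no overlap with the CRISPRi mice higher, beside 12.7%. Non-targeting mice 2 and 3 were below the other 4 libraries in 32 of the 36 genes (88.9%), beside 54.3% of all genes. The genes that joined it were Nop58, Gar1, Ncl, Rrp9 and Noc4l, while Polr1a and Heatr1, which showed it in the sum of all transcripts, were not tested here. Without non-targeting mouse 1, 23 of the 36 passed as higher, beside 31.8% of all genes. Among them were Nop56 (log2 fold change 1.05, adjusted p = 0.0128), Rrp9 (0.54, adjusted p = 0.0317) and Noc4l (0.52, adjusted p = 0.0301). With median-of-ratios scaling as well, 4 of the 36 passed, Myc, Nob1, Nop2 and Rrs1, beside 3.8% of all genes higher. Mybbp1a was not among these 4. All of the signal of Myc, Nop2, Rrs1 and Nop14 lay on protein-coding transcripts, so their levels are the same in both sums. That Myc passed, and that Nop14 did not overlap, in both sums is therefore a repeat and not a second result.

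Other genes of the pathway were taken from a list. Of 110 further ribosome biogenesis genes 107 were matched and 105 tested, of which 0 passed, 88 were above 0, and the median log2 fold change was 0.22, becoming 0.045 with median-of-ratios scaling. Eif6, which keeps the large subunit from joining the small one too early, was at 174, 98.3 and 126 TPM in the non-targeting and at 214, 219 and 217 TPM in the CRISPRi mice. Unlike most of the set it did not overlap, since non-targeting mouse 1 stayed below the CRISPRi mice (log2 fold change 0.74, SE 0.21, adjusted p = 0.323). Dhx37, a helicase of the processome, also did not overlap, at 16.3, 6.56 and 9.78 TPM against 19.3, 21.2 and 17.1 TPM (log2 fold change 0.84, SE 0.29, adjusted p = 0.344). Nol6, another processome protein, overlapped at 4.73, 2.31 and 2.88 TPM against 5.52, 5.30 and 4.32 TPM (log2 fold change 0.52, SE 0.23, adjusted p = 0.381). Over the list, 5 of the 105 were higher in each CRISPRi library and 1 was lower, beside 12.5% and 4.57% of all genes. Without non-targeting mouse 1, 38 of the 105 passed as higher and 0 as lower, beside 23.1% of all genes higher and 2.24% lower. With scaling added 0 passed as higher, beside 1.74% of all genes, and 1 passed as lower, beside 2.74%. The median log2 fold change of the list was then 0.12. The gene that passed as lower was Emg1, an rRNA methyltransferase (log2 fold change -0.63, adjusted p = 0.0420).

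The RNA exosome, which trims the rRNA precursors and degrades their spacers, had 13 of its 14 listed genes tested, with a median log2 fold change of 0.19, 10 above 0 and 0 past the threshold. Its smallest p-values were those of Exosc7 (log2 fold change 0.52, SE 0.25, adjusted p = 0.394), Mphosph6 (0.44, SE 0.21, adjusted p = 0.394) and Exosc4 (0.32, SE 0.19, adjusted p = 0.437). In Exosc7 the levels of 52.7, 25.9 and 32.9 TPM against 53.2, 52.5 and 48.6 TPM repeated the low non-targeting mice 2 and 3.

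Known Myc targets outside the nucleolus were compared as well, to set the nucleolar genes beside others that Myc can activate. Of 36 listed, 35 were matched and 30 tested, with a median log2 fold change of 0.20, 24 above 0, and 0 past the threshold. The median became -0.01 with median-of-ratios scaling. The groups did not overlap in 4 of the 30, all higher in the CRISPRi mice, beside the 12.5% of all genes given above. Odc1, the first enzyme of polyamine synthesis, was at 85.7, 65.9 and 68.7 TPM in the non-targeting and at 104, 109 and 118 TPM in the CRISPRi ones (log2 fold change 0.59, SE 0.16, adjusted p = 0.323). Pkm, pyruvate kinase of the muscle type, was at 40.9, 7.90 and 20.3 TPM against 66.2, 53.3 and 43.4 TPM (log2 fold change 1.45, SE 0.48, adjusted p = 0.344). Pkm is made by many liver cells other than hepatocytes. The summed stellate markers above also stood higher in the CRISPRi mice. Of the 10 Kupffer cell markers, 5 were higher in each CRISPRi library and 0 were lower. The part of such cells in the level of Pkm was not tested. Slc1a5, a glutamine transporter, was at 1.19, 0.785 and 1.08 TPM against 1.68, 1.95 and 1.79 TPM (log2 fold change 0.48, SE 0.16, adjusted p = 0.344).

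Surplus 5S ribonucleoprotein binds Mdm2 and thereby stabilises the p53 protein when ribosome assembly is disturbed. Protein was not measured here, so the mRNA levels below do not show whether this route was active. The 5 genes listed for this route were all tested, and 0 passed. All were above 0, beside 74.03% of all tested genes. Their median log2 fold change was 0.68, beside 0.18 for all tested genes, and became 0.48 with median-of-ratios scaling. Mdm2 was at 20.0, 8.66 and 10.2 TPM in the non-targeting and at 21.3, 20.0 and 18.7 TPM in the CRISPRi mice. Trp53, which encodes p53, was at 16.8, 6.31 and 5.99 TPM against 17.4, 15.2 and 12.4 TPM. Cdkn1a, the cell cycle inhibitor p21 and a p53 target, was at 147, 22.9 and 51.1 TPM against 153, 133 and 87.6 TPM. All 3 overlapped only through non-targeting mouse 1, as Myc did, and their adjusted p-values were 0.367, 0.399 and 0.406. Without that mouse all 3 passed as higher, beside 23.1% of all genes. Their log2 fold changes were then 1.01 for Mdm2, 1.15 for Trp53 and 1.79 for Cdkn1a (adjusted p = 0.0173, 0.0174 and 0.0284). With scaling added, Mdm2 (0.69, adjusted p = 0.0432) and Trp53 (0.84, adjusted p = 0.0431) passed and the other 3 genes of this list did not, beside 1.74% of all genes higher.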

How the data were processed

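The deposited table of the whole series holds TPM per transcript for 6 libraries, with a gene symbol beside each of 117486 transcripts. The authors made them with kallisto and the mm39 build, per the submitters' processing notes; its version and the transcript set are not stated in the sources used here. The 168 transcripts without a symbol (116 to 143 TPM per library) were left out, and the rest were summed by symbol in Python 3.11.15 with pandas 2.3.3. Genes that averaged 1 TPM or more were tested on log2(TPM + 1), which understates the change of low genes, in limma 3.58.1 under R 4.3.3 with a trended prior, CRISPRi minus non-targeting, no covariate, two-sided, at a Benjamini-Hochberg adjusted p below 0.05 over all genes tested. Neurl1b, under the minimum, was fitted without it. Single values were also compared by exact two-sided permutation. The fit was first tested on simulated data. Those data had independent noise in each gene and lacked levels that were low across many genes in the same mice. Groups and mouse numbers came from the sample titles, and separate mice are the replicates. Same-numbered mice did not deviate together, so mice were not paired.

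The genes of the set, their roles and the further gene lists were chosen with earlier results of these data known. Levels are given in every library for Myc and, in each role, for the genes with the highest mean, the smallest p and the highest and lowest log2 fold change. Up to 3 genes of each further list, by smallest p, are given, and up to 4 promoters with an E-box, by smallest p. Nop2 was given its levels in every library, and Mxd4 and Emg1 were named, after their values were seen. Transcript types came from GENCODE vM21 (GRCm38), in which 99.2% of transcripts with a symbol were found, and promoter sequences from RefSeq tables of GRCm38.p6; both are of another build than the table, so the coordinates only locate the printed sequences. Alternatives were other pseudocounts, filters, scalings and priors, array weights, a replicate block, the transcript with the highest mean, protein-coding transcripts, an adjusted p below 0.1, and each mouse left out, also with scaling.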

Additional observations from a re-analysis of the deposited data

How the results depend on the processing

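The count of 0 genes of the set past the threshold was the same in every alternative with all 6 mice except array weights (14 higher), and its leave-one-out range was 0 to 18. With protein-coding transcripts and without non-targeting mouse 1 it was 23, and 4 with scaling added, with a median log2 fold change of 0.52 in the former. Of all genes, 0 were higher with a pseudocount of 5, without a filter, with quantile normalization and with scaled protein-coding transcripts, 1 with a mean TPM of at least 5 and with protein-coding transcripts, and 1963 with array weights, in contrast to 2 with the settings of the report; protein-coding transcripts without non-targeting mouse 1 gave 3017 unscaled and 360 scaled, and the leave-one-out range was 0 to 2436. Lower were 247 with array weights, 1 with the top transcript, 1 at an adjusted p below 0.1, 222 and 446 with protein-coding transcripts without that mouse, unscaled and scaled, and 0 to 289 with 1 mouse left out. Neurl1b passed only with protein-coding transcripts and without that mouse (-0.44, adjusted p = 0.0357). With the mouse number as a replicate block, 0 genes of the set and 2 of all genes passed, the same counts as without it; the deviations of same-numbered mice correlated at 0.06, -0.10 and -0.28, so the mice share only a number. Log2 fold changes that turned sign were, with median-of-ratios scaling, Nop58 -0.057, Nop10 -0.063, Polr1c -0.070, Ncl -0.12, Gnl3 -0.14, Utp3 -0.081, Utp15 -0.00043, Heatr1 -0.0072, Imp3 -0.21, Noc4l -0.18, Ltv1 -0.062 and Wdr12 -0.0095; with quantile normalization, Polr1c -0.037, Ncl -0.00021, Gnl3 -0.094, Utp3 -0.049, Utp15 -0.050, Heatr1 -0.031, Imp3 -0.12, Noc4l -0.18, Ltv1 -0.055 and Wdr12 -0.013; without the most abundant genes, Imp3 -0.028 and Noc4l -0.0091; with a pseudocount of 0.1, Rrp1b 0.0015; with array weights, Gar1 0.023 and Rrp1b 0.27; with the top transcript, Nop56 -0.30, Gar1 0.49, Tcof1 0.087, Gnl3 -0.14, Rrp9 0.36 and Wdr12 -0.021. With 1 mouse left out, scaled or not, the ranges of those that turned were Nop56 -0.076 to 0.57, Nop58 -0.25 to 0.37, Dkc1 -0.31 to 0.027, Nhp2 -0.14 to 0.39, Nop10 -0.15 to 0.25, Gar1 -0.43 to 0.030, Polr1a -0.00085 to 0.55, Polr1c -0.095 to 0.24, Ncl -0.26 to 0.20, Tcof1 -0.35 to 0.0055, Gnl3 -0.25 to 0.21, Utp3 -0.18 to 0.32, Utp15 -0.053 to 0.28, Heatr1 -0.048 to 0.25, Imp3 -0.29 to 0.057, Noc4l -0.30 to 0.23, Ltv1 -0.14 to 0.29, Wdr12 -0.091 to 0.43 and Rrp1b -0.37 to 0.21. With protein-coding transcripts and all 6 mice, the log2 fold change of Gar1 turned to 0.21 and that of Rrp9 to 0.36. The cause of these turns was not tested. TPM hold no depth, so how far read number limits the low genes is unknown.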
